A study of Rattus norvegicus with 18 samples.

Results

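CHD5 depletion was examined here at its earliest time point, day 5 of culture, on 6 of the 18 arrays of the series: 3 from rat primary cortical neurons infected with a lentivirus expressing CHD5 shRNA and 3 from neurons infected with a scrambled control shRNA. The members were all genes with signal on these 6 arrays, and 10526 of the 22523 probes on the array had a detection p of at most 0.02 on at least 1 of them. Neurons were taken from the cortex of E18 rats, exposed to virus for 6 hours on day 1 after plating and collected on day 5. Both groups were thus infected cultures that differed in the shRNA insert of the pLKO.1 vector. The labels name a single CHD5 shRNA treatment without its sequence, so depletion of CHD5 and any other effect of that shRNA cannot be told apart. The other 12 arrays were matched pairs of groups collected on days 9 and 12, with 3 arrays per group. The labels do not say whether replicates a, b and c came from separate cultures or animals, so each p-value measures the spread between these arrays, which may be technical. Dissociated cortex holds neurons together with some precursors, glia and vascular or meningeal cells, and each array reads the RNA of the whole dish, in which fewer cells of a type and less RNA per cell cannot be told apart.

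CHD5 is a chromodomain and helicase-like ATPase that is found in neurons, and it is a relative of CHD3 and CHD4, the motor subunits of the NuRD complex. NuRD joins nucleosome remodeling to histone deacetylation and can hold genes off or help to keep them on. Early in culture, cortical cells still include dividing precursors, which leave the cell cycle over the following days, and radial glia, which give rise to astrocytes.

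The array carried 0 probes for Chd5, so the depletion itself could not be read. The paralogs Chd3 and Chd4 were measured. Chd3 had normalized log2 signals of 8.80, 8.50 and 8.52 in control arrays a, b and c and 8.47, 8.57 and 8.42 in CHD5 shRNA arrays a, b and c. Chd4 had 10.93, 11.21 and 11.02 in control and 10.65, 11.07 and 11.15 in CHD5 shRNA arrays. The groups overlapped for both genes, with log2 differences of -0.12 ± 0.12 (SE) for Chd3 and -0.10 ± 0.12 for Chd4.

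Signals were put on a common log2 scale, on which a difference of -1 is roughly a halving. Each array was rescaled to the same spread, so the sizes of differences depend on that rescaling. Across the day 5 arrays the mean signal was 508 to 789 and 8586 to 9931 probes were detected per array. Between any pair of day 5 arrays the log2 signals correlated at 0.982 to 0.995 across probes. Each gene was tested with limma (linear models with moderated errors) in 1 fit over all 18 arrays, and probes with a p under 0.05 after Benjamini-Hochberg adjustment were called. In that fit 1 array from outside day 5, day 9 control b, stood apart, with a mean signal of 135 and an SD of log2 signal of 1.12 against 1.72 to 2.0 on the others. It enters the shared estimate of the spread, so counts are given with and without it. Weights by which limma rates each array were lowest for day 5 control b (0.0114), a control of the contrast itself. Day 9 control b had 0.0236. With these weights in the fit 29 probes were called. An exact permutation test of 3 against 3 arrays cannot go below 0.1, and every probe named below as having groups without overlap reached that limit.

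CHD5 shRNA changed few genes at day 5, and most of those called were lower. There were 25 called probes, 0.238% of those tested, of which 18 were lower (0.171%) and 7 were higher (0.0665%). All 25 separated the groups without overlap, and 23 were detected on all 6 arrays. Of them Lox, Lpl and Tagln differed by a log2 difference of 1 or more. The genes called lower included a collagen cross-linking enzyme, basement membrane and proteoglycan genes, an integrin, lipoprotein lipase, a metallothionein and a spindle gene. At an unadjusted p under 0.05, 367 probes were lower (3.49%) and 285 were higher (2.71%). The groups did not overlap, with CHD5 shRNA lower, for 615 probes (5.84%), and with CHD5 shRNA higher for 569 (5.41%). With every array except day 9 control b, all 25 kept their call and 166 probes were called, 116 lower (1.1%) and 50 higher (0.475%). With arrays of the same letter treated as pairs, 13 probes were called over all days, 12 of the 25 and Pcp4, and 58 in a fit of the day 5 arrays alone. With median centring in place of Z-scores, 3 probes were called, all lower (Lox, Tagln and Itgb5), and 123 without day 9 control b, of which 81 were lower and 42 higher. When 1 day 5 array was left out at a time, 6 (without control b) to 35 (without control c) probes were called, with 7, 9 and 15 without CHD5 shRNA arrays c, b and a. Lox, Lpl, Itgb5, Mt1 and Pxdc1 kept their call in all 6 of these fits, and each of the other 20 lost it in at least 1. Rab3d, Htra1 and Dlgap5 lost it in all 6. Tagln, Bud23, Ifitm3, Mfsd2a, Mpp4, Tsnax, Kmt5c and Pnma3 lost it in 5 of the 6.

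**Figure D1:**
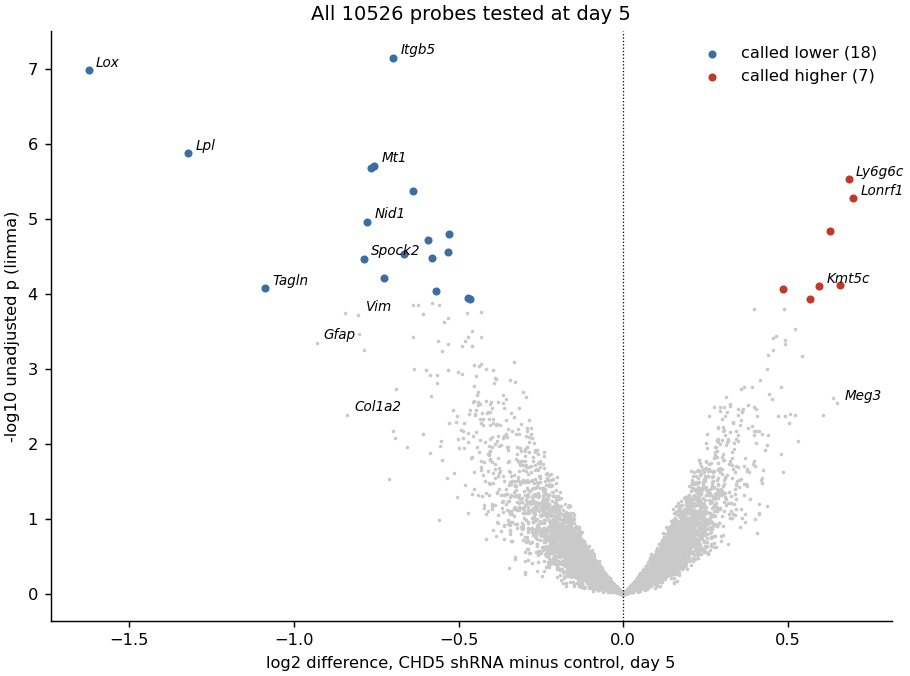
Difference and significance of the 10526 probes tested at day 5. The horizontal axis is the log2 difference (CHD5 shRNA minus control, 3 arrays each), the vertical axis is -log10 of the unadjusted limma p, and each point is 1 probe. The 18 probes called lower (blue) reach -1.62 at Lox, whereas the 7 called higher (red) reach 0.70 at Lonrf1.

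Matrix genes were among the strongest falls. Lox encodes lysyl oxidase, which cross-links collagen and elastin outside the cell. Its normalized log2 signals were 9.34, 9.26 and 9.16 on the control arrays and 7.60, 7.79 and 7.51 on the CHD5 shRNA arrays. Every CHD5 shRNA array thus lay well below every control array. The log2 difference was -1.62 ± 0.19 (SE, adjusted p = 5.53e-04), about 0.325 times the control level on this scale. The call held when each day 5 array was left out in turn. The difference of Lox was -1.71 in a fit of the day 5 arrays alone and -1.99 with neqc, another normalization.

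Spock2 and Nid1 were the next in size among the matrix genes called. Nid1 encodes nidogen-1, which links laminin and collagen IV in basement membranes, and read 8.61, 8.72 and 8.59 in control and 7.72, 8.08 and 7.79 in CHD5 shRNA arrays, a log2 difference of -0.78 ± 0.13 (adjusted p = 0.0128). Spock2, which encodes the matrix proteoglycan testican-2, read 9.82, 9.58 and 9.62 in control and 9.07, 8.74 and 8.85 in CHD5 shRNA arrays, a log2 difference of -0.79 ± 0.14 (adjusted p = 0.0223). Both genes fell on all 3 CHD5 shRNA arrays. Gpc4, a glypican that astrocytes release and that promotes excitatory synapses, fell from 8.85, 8.95 and 9.00 to 8.43, 8.22 and 8.36, a log2 difference of -0.59 ± 0.10 (adjusted p = 0.0166). With same-letter arrays paired, Nid1 missed the threshold (adjusted p = 0.0550).

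Of 35 matrix glycoproteins and proteoglycans tested, these 3 were called lower and 0 higher. A further part of the list was lower without passing the test. Counting the 3 called, 15 members had an unadjusted p under 0.05 and 16 had groups without overlap, every one with CHD5 shRNA lower. Over all probes tested, 3.49% were lower at that p and 5.84% were lower without overlap. The median log2 difference of the list was -0.15, beside 0.01 over all genes. Among the members not called, the fibulins Fbln1, Fbln2 and Fbln5, which bind elastic fibers and basement membranes, had log2 differences of -0.53, -0.47 and -0.48. Fbln2 and Fbln5 were near background, with detection on 3 and 2 control arrays and on 0 CHD5 shRNA arrays. Sparc, a collagen-binding glycoprotein, was at -0.61 ± 0.20 (adjusted p = 0.389). Fibronectin, Fn1, differed less, at -0.29 ± 0.11. Vcan and Agrn, which encode versican and agrin, had small positive differences of 0.12 and 0.13. Without day 9 control b the count called lower rose from 3 to 9 and included all 3 fibulins.

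Among 16 collagens and collagen-processing genes tested, Lox was the 1 called and the median difference was -0.02. Col1a2, a chain of type I collagen, read 8.59, 8.98 and 8.42 in control and 7.93, 7.99 and 7.56 in CHD5 shRNA arrays, so the groups did not overlap, yet the adjusted p was 0.303. Col4a1 and Col4a2, the basement membrane collagens that nidogen binds, had differences of 0.12 and -0.04 with overlapping groups. Col1a1 and Col3a1 were not detected on any day 5 array.

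Receptors and proteases of the matrix included 2 called genes. Itgb5 encodes integrin β5, which pairs with integrin αv to bind vitronectin, and had the lowest p of all probes. Its signals were 7.58, 7.49 and 7.51 in control and 6.86, 6.82 and 6.81 in CHD5 shRNA arrays, so the arrays within each group lay close together beside the gap between the groups. The log2 difference was -0.70 ± 0.08 (adjusted p = 5.53e-04), and the call held without each day 5 array in turn. Itgav, its partner, was at -0.53 ± 0.12 and was not called (adjusted p = 0.0948, or 0.00773 without day 9 control b). Itgb1, the most widely shared β chain, was at 0.06 ± 0.10 with overlapping groups. Htra1, a secreted serine protease that is also an astrocyte gene, fell from 7.56, 7.46 and 7.62 to 6.96, 6.98 and 6.99 (adjusted p = 0.0439, or 0.176 with paired letters). Of the 21 matrix proteases and inhibitors tested, Htra1 was the only one called. Timp1 and Plat, a metalloprotease inhibitor and tissue plasminogen activator, were at -0.48 and -0.45, whereas Reck, a membrane-anchored inhibitor, was at 0.64 ± 0.18 (adjusted p = 0.268).

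Tagln encodes transgelin, an actin-binding protein of smooth muscle and other contractile cells. It read 9.34, 8.76 and 8.68 in control and 7.86, 7.95 and 7.70 in CHD5 shRNA arrays, a log2 difference of -1.09 ± 0.22 (adjusted p = 0.0430). Control array a was the highest, and the 3 CHD5 shRNA arrays lay close together below all controls. Without control array a the difference was -0.88, and the call was lost in that fit and in 4 of the other 5 that left out a day 5 array. Ccn2, a secreted matrix-associated factor, read 9.49, 9.30 and 9.31 in control and 8.48, 9.06 and 8.47 in CHD5 shRNA arrays and was not called (adjusted p = 0.373).

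Lpl, lipoprotein lipase, releases fatty acids from lipoprotein triglycerides at the cell surface. It read 9.62, 9.73 and 9.58 in control and 8.20, 8.51 and 8.25 in CHD5 shRNA arrays. The arrays of each group were close to one another and far from the other group. The log2 difference was -1.32 ± 0.19 (adjusted p = 0.00447), or about 0.40 times the control level on this scale. The call held without each day 5 array in turn. With median centring the adjusted p was 0.205.

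Among 24 genes of lipoprotein and fatty acid handling, Lpl was the 1 member called and the median difference was 0.03. The receptors Lrp1 and Vldlr, which take up lipoproteins, were at -0.09 and -0.15 and were not called. Abcg1, which exports cholesterol, was 7.94, 7.90 and 7.81 in control and 8.41, 8.39 and 8.17 in CHD5 shRNA arrays, a difference of 0.44 ± 0.11 (adjusted p = 0.117, or 0.00773 without day 9 control b). Apoe was at -0.29 ± 0.30 with overlapping groups. Of 20 genes of sterol and fatty acid synthesis, 0 were called and the median was 0.05. Outside this list, Mfsd2a, a transporter of lysophosphatidylcholine that carries omega-3 fatty acids into brain, fell from 7.71, 7.66 and 7.70 to 7.37, 7.11 and 7.19 (log2 difference -0.47 ± 0.10, adjusted p = 0.0489).

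Mt1, metallothionein-1, binds zinc and copper and is abundant in astrocytes. Its signals were 8.78, 8.60 and 8.73 in control and 8.04, 7.88 and 7.92 in CHD5 shRNA arrays, with a log2 difference of -0.76 ± 0.11 (adjusted p = 0.00447), and the call held without each day 5 array in turn. Metallothionein genes are controlled through short metal response elements, so the promoter is shown, as RefSeq gives it in build GRCr8 at chr19:10832926-10833225 on the minus strand. The window runs from 250 bases before to 50 bases after the start of the gene. Capitals mark the core of the metal response element (TGCACNC or TGCGCNC, either strand) and the TATA box (TATAAA), and none of the marked stretches overlap.
Mt1: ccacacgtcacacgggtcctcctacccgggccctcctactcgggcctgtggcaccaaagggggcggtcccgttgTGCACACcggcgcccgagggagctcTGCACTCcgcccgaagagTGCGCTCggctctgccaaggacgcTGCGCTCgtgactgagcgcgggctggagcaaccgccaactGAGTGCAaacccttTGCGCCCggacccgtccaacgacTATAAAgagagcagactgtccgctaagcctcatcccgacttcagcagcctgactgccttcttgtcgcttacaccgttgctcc
The window held 6 element cores and 1 TATA box. Of all 27457 promoters of the same length, 25% held at least 1 such core and 14.3% held TATAAA. Among the 25 called genes, 17 had a promoter in the table, and 6 of these held a core: Mt1, Itgb5, Tmem263, Gldc, Tsnax and Pnma3.

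The remaining genes called lower were of mixed roles. Dlgap5, a spindle assembly factor of dividing cells, fell from 8.94, 8.81 and 8.89 to 8.51, 8.34 and 8.38 (log2 difference -0.47 ± 0.10, adjusted p = 0.0489). Gldc, the glycine decarboxylase of the glycine cleavage system, fell by 0.53 and was detected on 3 control arrays but on 1 CHD5 shRNA array. Rab3d, a small GTPase of secretory vesicles, fell from 9.87, 9.88 and 9.89 to 8.97, 9.22 and 9.27. Its 3 control arrays were nearly equal. Bud23, which methylates ribosomal RNA, fell by 0.67, and Mrpl21, a protein of the mitochondrial ribosome, fell by 0.53. Pxdc1 fell from 8.62, 8.62 and 8.70 to 7.84, 8.0 and 7.80, a log2 difference of -0.76 ± 0.11 (adjusted p = 0.00447). Tmem263, an abundant transcript here, fell from 11.21, 11.19 and 11.23 to 10.65, 10.65 and 10.43. With same-letter arrays paired, Rab3d, Bud23, Mrpl21, Gldc, Dlgap5 and Mfsd2a missed the threshold, with adjusted p of 0.0527, 0.0757, 0.117, 0.0519, 0.101 and 0.122. Ifitm3, an interferon-induced protein that restricts virus entry, fell by 0.58, with signals of 6.78, 6.61 and 6.57 in control and 6.12, 6.03 and 6.07 in CHD5 shRNA arrays. It was near background, with detection on 2 control arrays and on 0 CHD5 shRNA arrays. Of 10 interferon response genes tested, Ifitm3 was the 1 called and the median difference was -0.05.

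Among the 7 genes called higher, Lonrf1 and Ly6g6c differed most. Lonrf1, which carries a LON N-terminal domain and RING fingers, rose from 7.41, 7.34 and 7.48 to 7.93, 8.32 and 8.08 (log2 difference 0.70 ± 0.11, adjusted p = 0.00702). Ly6g6c, a GPI-anchored member of the Ly6 family, rose from 7.19, 6.85 and 7.20 to 7.82, 7.70 and 7.78 (log2 difference 0.69 ± 0.10, adjusted p = 0.00521). Both were higher on all 3 CHD5 shRNA arrays than on any control array. Txnip, a thioredoxin-binding protein that rises with glucose, went from 9.82, 9.78 and 9.83 to 10.35, 10.57 and 10.38, a log2 difference of 0.63 ± 0.11. Kmt5c, a histone H4 lysine methyltransferase of heterochromatin, went from 10.89, 10.82 and 11.22 to 11.43, 11.59 and 11.71, a log2 difference of 0.59 ± 0.12 (adjusted p = 0.0430). Control array c was the highest control for Kmt5c and lay just below the lowest CHD5 shRNA array. Pnma3, of the paraneoplastic Ma antigen family, rose by 0.66. Tsnax, the partner of the RNA-binding protein translin, rose by 0.57. Mpp4, a membrane scaffold protein, rose by 0.48. With same-letter arrays paired, Lonrf1 and Ly6g6c stayed under the threshold, and the other 5 had adjusted p from 0.0505 (Tsnax) to 0.117 (Pnma3).

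**Figure D2:**
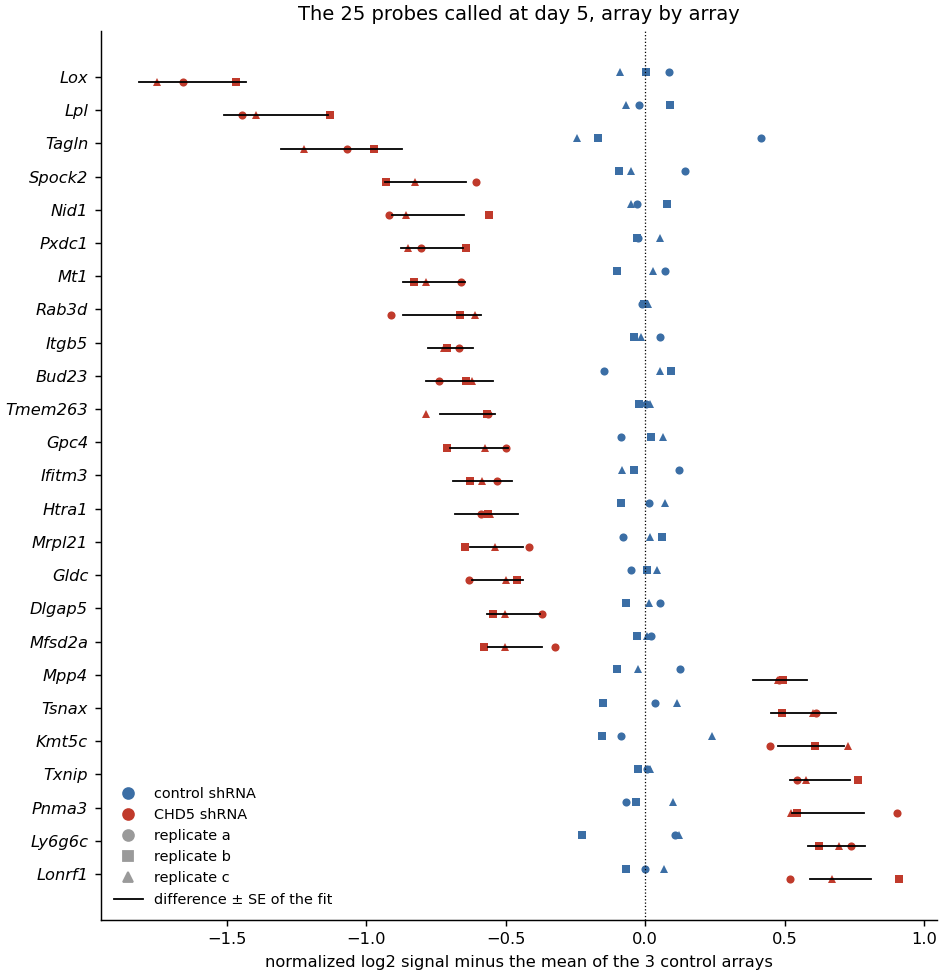
The 25 probes called at day 5 on each array. The horizontal axis is the normalized log2 signal minus the mean of the 3 control arrays; blue points are control and red points CHD5 shRNA arrays, their shapes give replicates a, b and c, and the black bar is the log2 difference ± SE of the fit. In every row the red and blue points do not overlap, and the gap is widest for Lox and Lpl.

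Most genes of dividing cells had lower signals on the CHD5 shRNA arrays, though no member of the list was called. Of 57 tested, 54 had a negative difference. At an unadjusted p under 0.05, 27 were lower on CHD5 shRNA arrays and 0 higher, and 29 had groups without overlap, all lower. Over all probes tested, 3.49% were lower at that p and 5.84% were lower without overlap. The median log2 difference of the 57 was -0.28, beside 0.01 over all genes. Without day 9 control b, 15 of the 57 were called lower. Under quantile normalization 6 and under neqc 4 were called lower, whereas with paired letters or the day 5 arrays alone there were 0. The summed signal of the 57 was 48011 to 53092 on the control arrays and 41354 to 45147 on the CHD5 shRNA arrays, without overlap.

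Cdk1, the kinase that drives entry into mitosis, had the lowest difference in the list. It read 10.60, 10.49 and 10.25 in control and 9.96, 9.93 and 9.79 in CHD5 shRNA arrays, a difference of -0.56 ± 0.20 (adjusted p = 0.452, or 0.00179 without day 9 control b). Its partners Ccna2 and Ccnb2, cyclins A2 and B2, were at -0.47 ± 0.16 and -0.43 ± 0.11. Ccnb2 read 10.42, 10.38 and 10.40 in control arrays, which were almost the same, and 10.11, 9.86 and 9.95 in CHD5 shRNA arrays. The mitotic kinesins Kif11, Kif20a, Kif22 and Kif23 lay between -0.43 and -0.38, and Kif4a and Kif2c were at -0.32 and -0.26. Of the genes that copy DNA, Mcm2 and Rrm2 were at -0.39 and -0.45, but Mcm4, Mcm6, Mcm7 and Rrm1 lay between -0.12 and -0.08. Mki67, a common label of cycling cells, was at -0.01 ± 0.14 with overlapping groups, and Tyms was at 0.14 ± 0.10.

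Grouping the list by role, which was done after these values were seen, gave different medians for mitosis and for replication. All 29 genes of mitosis and chromosome segregation had a negative difference, with a median of -0.38, and 22 had an unadjusted p under 0.05. Of 16 genes of DNA replication and its licensing, 13 were negative, with a median of -0.09, and 4 had an unadjusted p under 0.05. The difference between the roles was not tested.

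**Figure D3:**
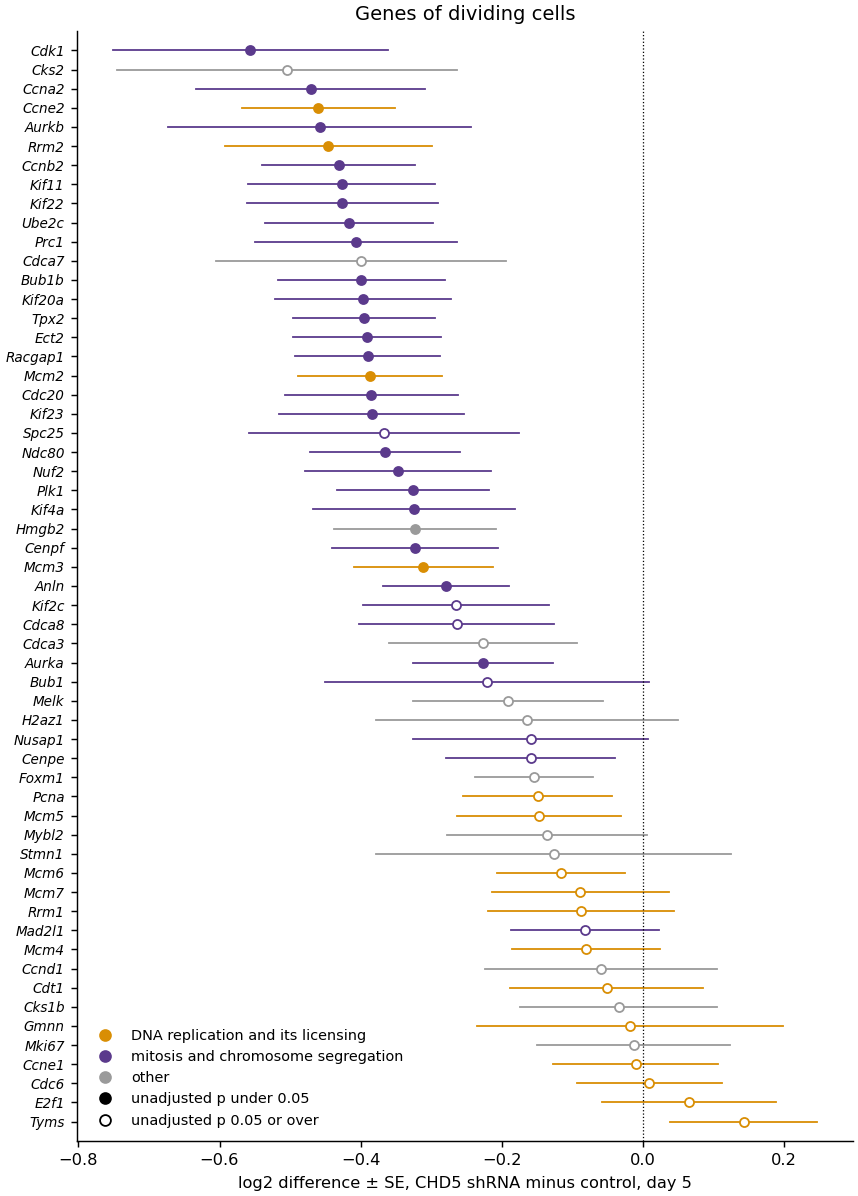
Genes of dividing cells at day 5. Points are log2 differences (CHD5 shRNA minus control, 3 arrays each) with the SE of the fit for the 57 genes tested; purple marks mitosis, orange DNA replication, and filled points an unadjusted p under 0.05. Of the 57, 54 lie below 0, and the purple points have a median of -0.38.

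Many genes of mitosis carry the cell cycle homology region near their start, often with a CCAAT box. Promoters of 3 members with large differences are shown from RefSeq, build GRCr8, over the same window of 250 bases before to 50 after the start. The 3 were not chosen by size alone: Ccna2, Ccne2, Aurkb, Rrm2 and Ccnb2 fell more than Kif11 and Kif22 and are not shown. Members with no promoter at hand, or on chromosomes 8 and 18, were passed over. Capitals mark the cell cycle homology region (TTTGAA) and the CCAAT box (CCAAT) on either strand, with no marked stretch overlapping another. Cdk1 lies at chr20:19265043-19265342 on the plus strand, Kif11 at chr1:244536617-244536916 on the plus strand and Kif22 at chr1:191080829-191081128 on the minus strand.
Cdk1: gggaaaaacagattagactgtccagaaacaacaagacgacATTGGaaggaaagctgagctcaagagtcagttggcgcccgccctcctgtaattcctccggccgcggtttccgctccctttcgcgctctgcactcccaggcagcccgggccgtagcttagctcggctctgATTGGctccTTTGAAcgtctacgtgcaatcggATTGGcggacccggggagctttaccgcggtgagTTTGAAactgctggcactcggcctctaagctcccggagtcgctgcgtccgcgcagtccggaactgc
Kif11: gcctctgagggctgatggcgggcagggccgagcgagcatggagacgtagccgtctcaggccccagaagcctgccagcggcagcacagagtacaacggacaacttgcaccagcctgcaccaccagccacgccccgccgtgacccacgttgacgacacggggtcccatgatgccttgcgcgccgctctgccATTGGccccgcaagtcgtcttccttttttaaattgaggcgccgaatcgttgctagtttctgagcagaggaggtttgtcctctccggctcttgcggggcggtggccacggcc
Kif22: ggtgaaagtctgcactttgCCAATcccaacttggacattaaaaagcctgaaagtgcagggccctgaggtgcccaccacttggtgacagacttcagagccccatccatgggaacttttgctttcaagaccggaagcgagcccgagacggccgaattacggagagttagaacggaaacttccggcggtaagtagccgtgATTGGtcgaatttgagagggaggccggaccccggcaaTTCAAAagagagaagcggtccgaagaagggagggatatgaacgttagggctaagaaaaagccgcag
TTTGAA was found 2 times in Cdk1, 1 time in Kif22 and 0 times in Kif11, and the CCAAT box 3, 2 and 1 times in the same order. Of the 57 genes, 45 had a promoter in the table, and TTTGAA was in 25 of these (55.6%) against 18.1% of all promoters. The CCAAT box was in 30 (66.7%) against 37.7%. Of the 20 promoters of genes with an unadjusted p under 0.05, 16 held TTTGAA, and of the 25 promoters of the other members, 9 did. That split uses the p-values of these same arrays, and whether TTTGAA goes with the falls was not tested. Among the 17 promoters of called genes, Spock2 was the 1 with TTTGAA.

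Some genes of radial glia and glial precursors had lower signals. Of 27 tested, 0 were called and the median was -0.20. An unadjusted p under 0.05 was reached by 7, and 7 had groups without overlap, all with CHD5 shRNA lower. Over all probes tested, 3.49% were lower at that p and 5.84% were lower without overlap. The summed signal of the 27 was 63089 to 81617 on control and 59332 to 68433 on CHD5 shRNA arrays. Vim, the intermediate filament vimentin, read 11.54, 11.56 and 10.83 in control and 10.29, 10.56 and 10.67 in CHD5 shRNA arrays. Control array c lay only a little above the CHD5 shRNA arrays, and the difference of -0.80 ± 0.17 was not called (adjusted p = 0.0551, or 0.0122 without day 9 control b). Nes, nestin, was more even, at 9.01, 9.00 and 8.89 in control and 8.69, 8.36 and 8.38 in CHD5 shRNA arrays (difference -0.49 ± 0.13, adjusted p = 0.174, or 0.0143 without that array). Nfia, a factor that starts astrocyte formation, was at -0.48 ± 0.21, and Notch1 at -0.38 ± 0.18. Fabp7, a fatty acid binding protein of radial glia, was at -0.09 ± 0.75 and Pax6 at -0.20, both with overlapping groups.

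Among radial glia, astrocytes and the oligodendrocyte lineage, the astrocyte list had the lowest median. Of 19 tested, Mt1 and Htra1 were called lower and the median was -0.29. An unadjusted p under 0.05 was reached by 6, and 10 had groups without overlap, all lower. Over all probes tested, 3.49% were lower at that p and 5.84% were lower without overlap. The summed signal of the 19 was 14005 to 14072 on control and 11092 to 11873 on CHD5 shRNA arrays. Gfap, the filament protein of astrocytes, had the largest fall in the list and among the probes that were not called but did not overlap, with 8.07, 7.87 and 8.07 in control and 7.12, 7.0 and 7.09 in CHD5 shRNA arrays. The groups lay apart, and yet the difference of -0.93 ± 0.22 had an adjusted p of 0.0941 over all days. It was 0.0222 without day 9 control b, 0.00767 in a fit of the day 5 arrays alone and 0.0215 with neqc, but 0.0832 with paired letters, 0.0549 with quantile normalization and 0.569 with median centring. Mlc1, a membrane protein of astrocyte endfeet, was at -0.57 ± 0.15. Aldoc and Sparcl1 were at -0.11 and 0.06 with overlapping groups, and Aqp4 was not detected on any day 5 array.

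No gene of the neuronal lists was called at day 5 over all 18 arrays. All 21 pan-neuronal genes with a probe were detected, among them Tubb3, Rbfox3 and Map2. Of these, 0 had an unadjusted p under 0.05, and their median difference was -0.09. Map2 was at -0.18 ± 0.16, Syp at -0.14 ± 0.15 and Snap25 at 0.08 ± 0.18. Of 15 genes of excitatory cortical neurons, 0 were called, with a median of -0.03, and of 18 genes of inhibitory interneurons, 0 were called, with a median of -0.09. Npy, neuropeptide Y, was the 1 interneuron gene with an unadjusted p under 0.05, at -0.35 ± 0.12 (adjusted p = 0.402), and it was called lower without day 9 control b (adjusted p = 0.0494). The summed signal of the pan-neuronal list was 57058 to 73691 on control and 58345 to 71361 on CHD5 shRNA arrays.

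Markers of other cells that a cortical dish can hold moved as follows. The 10 oligodendrocyte lineage genes tested had 0 called and a median of -0.10, with sums of 8147 to 9882 in control and 6921 to 7766 in CHD5 shRNA arrays. Mbp, Mag and Mog were not detected. Of the 9 meningeal and fibroblast genes tested, 0 were called, 3 had an unadjusted p under 0.05 and were lower (Col1a2, Fbln1 and Dcn) and 1 was higher (Crabp2), and the sums were 4854 to 6225 against 3856 to 4628. Of 18 genes of endothelial cells and pericytes, 4 were tested, and their sums, which include Tagln, were 748 to 937 against 540 to 570. Cldn5 and Tie1 of that list were at 0.10 and 0.12, and Flt1, Tek, Cdh5 and Vwf were not detected. Microglia genes Itgam, Cx3cr1 and C1qa were not detected, and the 3 tested of that list had sums of 1045 to 1199 against 1055 to 1207. Most of the oligodendrocyte sum was Olig1, at -0.30 ± 0.26 and not called. The sums of the dividing, astrocyte, oligodendrocyte and meningeal lists thus lay lower on every CHD5 shRNA array than on any control array. So did the endothelial sum, but Tagln was the 1 member of that list with an unadjusted p under 0.05. Of its 4 genes, 2 were lower and 2 higher, and a sum without Tagln was not taken. The sums of the radial glial, microglial and pan-neuronal lists overlapped between the groups. Their part in the differences of single genes was not tested.

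**Figure D4:**
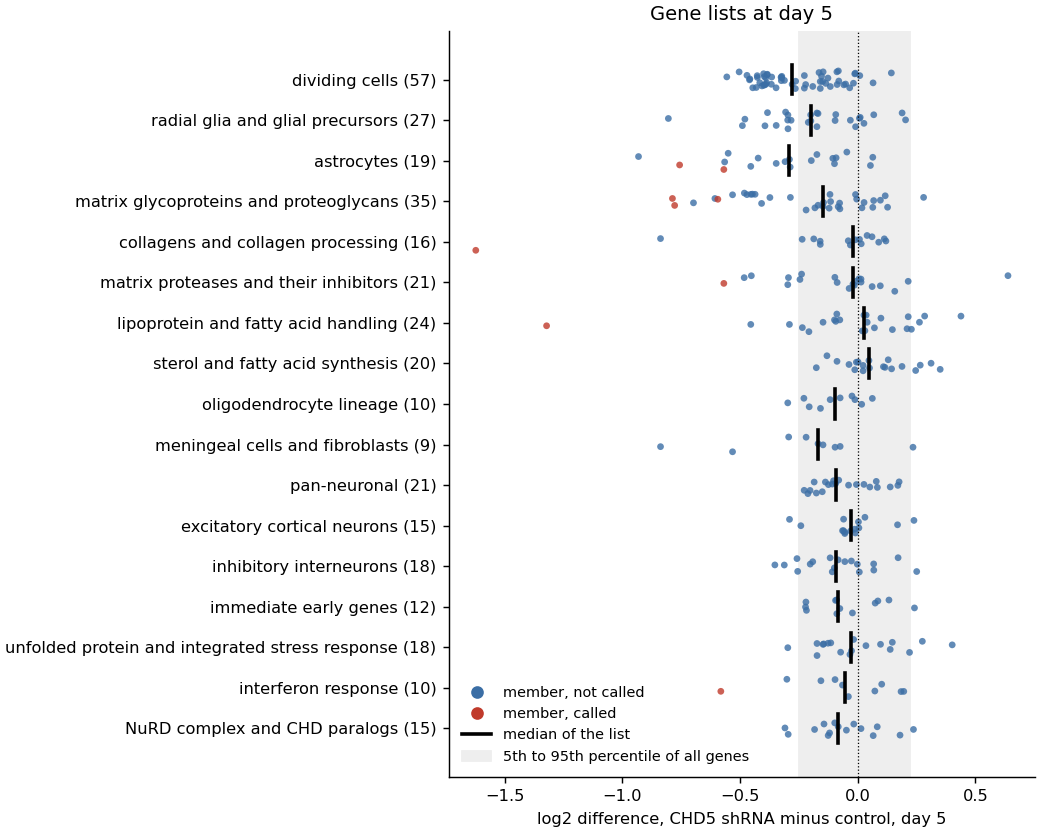
Log2 differences of the members of 17 gene lists at day 5. Each point is 1 gene tested (the number in brackets is the number of genes), red points are called, black bars are list medians and the grey band is the 5th to 95th percentile of all genes, -0.25 to 0.22. Lox (-1.62) and Lpl (-1.32) lie far from the other members of their lists, whereas 54 of the 57 genes of dividing cells lie below 0 with none called.

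Chromatin and stress genes were tested as further lists. Of 15 NuRD subunits and CHD paralogs, 0 were called and the median was -0.08, and Chd8, at 0.24 ± 0.11, was the 1 with an unadjusted p under 0.05. The deacetylases Hdac1 and Hdac2 were at 0.01 ± 0.12 and -0.30 ± 0.16. None of 18 unfolded protein and stress response genes, 9 p53 response genes and 12 immediate early genes was called, and their medians were -0.03, 0.04 and -0.08. The study picked a set of 29 genes from these samples, so their directions are not independent evidence. Of the 28 tested at day 5, Kmt5c was called. At an unadjusted p under 0.05, 6 had CHD5 shRNA lower (among them Gfap, Nfia, Add3, Npy and Ampd3) and 2 had it higher, Kmt5c and Dicer1. Ampd3, at -0.30 here, has the opposite direction in the paper, which lists it as repressed by CHD5 from PCR on separate samples.

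Outside the lists, differences were also large for some genes that were not called, taken among those whose groups did not overlap. Pip4p2 was at -0.85 ± 0.18 (adjusted p = 0.0551), Pcp4, a calmodulin-binding peptide of neurons, at -0.80 ± 0.18 (adjusted p = 0.0869, or 0.0178 with paired letters), and Fkbp10, a collagen chaperone, at -0.69 ± 0.23. Meg3, a long noncoding RNA, was at 0.65 ± 0.19 with a positive sign, and Acss2, an acetyl-CoA synthetase, at 0.52 ± 0.12 (adjusted p = 0.0792). Without day 9 control b, Pip4p2, Pcp4, Fkbp10 and Acss2 passed the threshold and Meg3 did not (adjusted p = 0.0509).

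The day 5 genes were followed into days 9 and 12, whose arrays are separate from those of day 5. The same fit called 237 probes lower (2.25%) and 392 higher (3.72%) on day 9. On day 12 it called 332 lower (3.15%) and 236 higher (2.24%). Day 9 control b is 1 of the 3 control arrays of day 9 and so enters the day 9 differences themselves. Without it, 703 probes were lower (6.68%) and 439 higher (4.17%) on day 9, and 723 lower (6.87%) and 648 higher (6.16%) on day 12. All 18 genes called lower at day 5 also had negative differences on both later days, and 15 were called at day 9 and 13 at day 12. Of the 7 called higher, 6 were higher at day 9, with 2 called, and 7 at day 12, with 3 called. Leaving that array out, 17 of the 18 and 2 of the 7 were called at day 9, and 14 and 4 at day 12. In all, 14 genes were called in the same direction on all 3 days, or 15 without that array. They included Lpl, with differences of -1.89 at day 9 and -1.79 at day 12, Itgb5, at -0.65 and -0.70, and Mt1, at -0.79 and -0.82.

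Some of the matrix and contractile differences were smaller at day 12. Lox read 8.96, 8.34 and 8.86 in control and 7.52, 7.12 and 7.04 in CHD5 shRNA arrays at day 9. At day 12 it read 7.61, 7.11 and 7.42 in control and 7.33, 6.57 and 7.12 in CHD5 shRNA arrays, and the groups overlapped. Control levels of Lox were lower on every day 12 array than on any day 5 control array. Its differences were -1.49 (adjusted p = 4.08e-04) and -0.37 (adjusted p = 0.362), but the change from day 5 to day 12, 1.25, did not pass its own test (adjusted p = 0.0861). Tagln was at -0.57 and -0.12, and Nid1 at -0.67 and -0.26, and neither change from day 5 passed the test. Without day 9 control b the day 9 difference of Tagln was -0.90 and was called (adjusted p = 0.00166).

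Htra1 differed more on the later days. It read 11.24, 11.22 and 11.11 in control and 9.33, 9.40 and 9.43 in CHD5 shRNA arrays at day 12, far apart. Its difference was -1.46 at day 9 and -1.80 at day 12, and the change from day 5 to day 12 of -1.24 passed the test (adjusted p = 0.00454). It was 1 of 12 probes (0.114%) whose difference changed between day 5 and day 12. Between day 5 and day 9, limma called 0 changes, with 783 at an unadjusted p under 0.05, and 59 without day 9 control b.

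List medians differed between days, with day 9 control b included. The astrocyte median went from -0.29 at day 5 to -1.0 at day 9 and -0.82 at day 12, and that of dividing cells from -0.28 to -0.13 on both later days. For matrix glycoproteins and proteoglycans the medians were -0.15, -0.23 and -0.09. The pan-neuronal median was -0.09 at day 5, 0.17 at day 9 and 0.20 at day 12. With that array left out, the day 9 medians were -0.86 for astrocytes, -0.15 for dividing cells, -0.21 for the matrix list and 0.24 for the pan-neuronal list. These shifts between days were not tested for the lists.

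**Figure D5:**
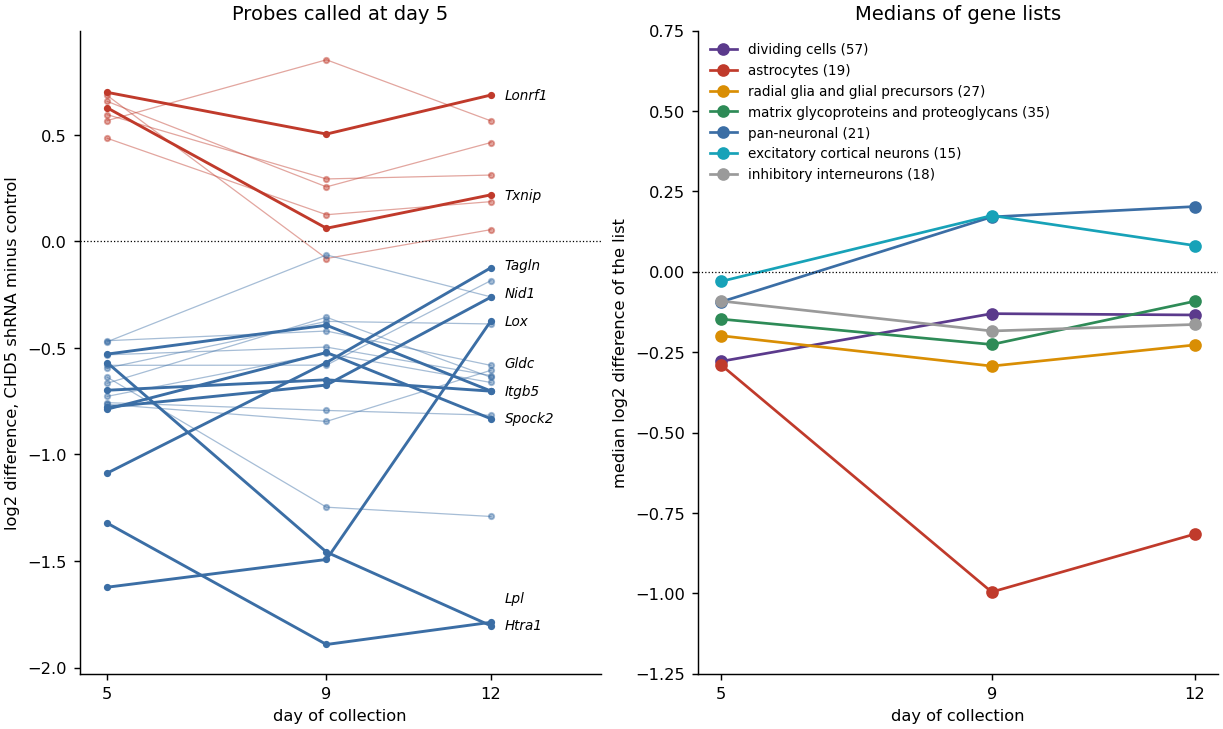
Day 5 differences followed to days 9 and 12. All 18 arrays enter. Left, log2 differences (CHD5 shRNA minus control, 3 arrays each) of the 25 probes called at day 5, against day of collection; blue lines were lower and red lines higher at day 5, and 10 genes are named. Right, medians of 7 gene lists, with the number of genes tested in brackets; the astrocyte median falls from -0.29 to -1.0 at day 9, while that of dividing cells lies at -0.13 on both later days.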

How the data were processed

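Biotin-labelled cRNA was hybridised to Illumina RatRef-12 BeadChips. The deposited intensity is the bead-averaged signal of each probe, exported by the authors from GenomeStudio 1.1.1 with no normalization and no background subtraction, and each intensity has a deposited detection p-value against negative control beads. For a replicate-a sample of each group a second run was deposited, used here as a check.

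Log2 intensities were turned into Z-scores within each array, as in the study's methods, and brought back to log2 units through the average SD over 18 arrays. Probes with a detection p of at most 0.02 on at least 1 of the 6 day 5 arrays were fitted with limma 3.58.1 in R 4.3.3 over 18 arrays in 6 groups, with Benjamini-Hochberg adjustment at 0.05 over all probes kept. The procedure was tested on simulated data with equal noise on every array, so that test does not bear on arrays of unequal quality. Gene symbols were updated through RefSeq (GRCr8), and 9434 of the 10526 probes had a current symbol. The main fit did not pair the arrays, and the calls, SEs and adjusted p come from it unless another fit is named. Within day 5, deviations of same-letter control and CHD5 shRNA arrays correlated at 0.284, 0.191 and 0.378. A second fit with the letters as pairs (a replicate block) is therefore given where it changed a call. At days 9 and 12 not every such correlation was above 0.1.

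Named genes were all probes called at day 5, the 10 largest falls and rises among probes not called whose groups did not overlap, list members with an unadjusted p under 0.05 or the largest difference, Chd3 and Chd4, and markers of cell types. Further list members were named after their values were seen. The members, the gene lists and the tests were chosen with earlier results of these data known. Promoters and motifs were read from RefSeq. The positions of array probes and the shRNA sequence were not used here, and a few list members are not reported here.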

Additional observations from a re-analysis of the deposited data

Results flagged for a closer look

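The difference between CHD5 shRNA and control changed from day 5 to day 12 for 12 probes, by the interaction term of the limma fit with a Benjamini-Hochberg adjusted p under 0.05. Without day 9 control b this count was 221, and with median centring it was 0, so the count depends on these choices. In each case the value given is the day 12 difference minus the day 5 difference on the log2 scale, over 3 arrays per group and day.

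For Htra1, Abhd1, Lpar1, Bhlhe41 and the predicted gene LOC681886 the difference moved downward. Htra1 moved by -1.24, from -0.57 to -1.80, and was the 1 gene of the 12 that was already called at day 5. Abhd1 moved by -1.06 and Lpar1, a receptor for lysophosphatidic acid found on oligodendrocytes, by -0.86. Both were near background at day 5: Abhd1 was detected on 1 control and 0 CHD5 shRNA arrays, and Lpar1 on 2 and 1. Since background was not subtracted, their day 5 differences may be understated. LOC681886 moved by -0.80 and Bhlhe41, a clock-related repressor, by -0.75.

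For the other 7 the difference moved upward. Adcyap1, which encodes the neuropeptide PACAP, moved by 1.18, from 0.35 to 1.53. Anxa1, annexin A1, moved by 1.17, and Prph, the neuronal filament protein peripherin, by 1.16. Rasgrf1, a Ras exchange factor of neurons, moved by 0.99, from -0.37 to 0.62. Pnoc, the precursor of the neuropeptide nociceptin, moved by 0.98, Ntng1, netrin-G1, by 0.89, and LOC689135 by 0.88. None of these 7 was called at day 5.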

How the results depend on the processing

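The number of probes called at day 5, 25, changed by over 1.5 times under several choices. It was 98 with quantile normalization, 68 with neqc, 41 when detection was required on all 3 arrays of a day 5 group, 14 with no detection filter, 11 with the day 5 arrays alone and 128 without the day 9 arrays. With the replicate block within a day it was 13, and with the replicate block and the day 5 arrays alone it was 58. With median centring it was 3. Leaving out 1 day 5 array at a time gave 6 to 35. The following fits were chosen after seeing the data: with every array except day 9 control b the count was 166, and with median centring of the same arrays 123. The counts and list medians of days 9 and 12 without that array were also added after seeing the data. That array also bears on the changes between days: 221 probes changed from day 5 to day 12 and 59 from day 5 to day 9 without it, beside 12 and 0 with it, and median centring gave 0 for the change to day 12. Of the 25, all kept their call with quantile normalization, without the day 9 arrays and without day 9 control b, 22 with neqc, 17 with the second run of replicate a, 12 with the replicate block, 9 with the day 5 arrays alone and 3 with median centring, and 0 changed sign in any of these. Beyond fewer arrays or probes in a fit, the cause of these shifts was not tested. No fit moved the median of all probes by over 0.1, but every fit normalized each array, which holds that median near 0. With 3 arrays per group the median SE was 0.13, which limits what can be called among genes with small differences, and since background was not subtracted, differences of genes near it, such as Ifitm3 and Gldc, are understated.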
